A study of Neurospora crassa with 12 samples.

Results

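The 7 genes described here encode proteins of *Neurospora crassa* that sense light, or that are close relatives of proteins that do. They were chosen by gene identity, as the rows of *vvd* (NCU03967), *cry* (NCU00582), *phr* (NCU08626), *phy-1* (NCU04834), *phy-2* (NCU05790), *nop-1* (NCU10055) and *orp-1* (NCU01735) among the 9730 genes of the deposited count tables. RNA-Seq libraries had been made from conidia of 2 strains after 5 h of germination at 30 °C in liquid medium with 44 mM sucrose. The inorganic phosphate (Pi) of the medium was 10 µM (low-Pi) or 10 mM (high-Pi), and each strain and medium was sampled in 3 biological replicates (I, II and III), which gave 12 libraries. The wild type was 74A, of mating type *A*. In the other strain, as the study describes it, a hygromycin resistance cassette replaces *mus-52*, a gene of the Ku complex of non-homologous end joining. This strain has mating type *a*, so the deletion, the mating type and any other difference between these 2 strains cannot be told apart. The illumination of the cultures is not given in the sources used here.

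*N. crassa* responds mainly to blue light, through the white collar complex of WC-1, which is itself a flavin-binding photoreceptor, and WC-2. The complex drives the transcription of many genes, among them *vvd*, whose product is a small blue-light receptor that binds the complex and dampens the response under continued light. CRY is a cryptochrome of the DASH type, and PHR is a photolyase, an enzyme that uses the energy of light to repair UV lesions in DNA. PHY-1 and PHY-2 are phytochromes, red and far-red light receptors with a histidine kinase domain. NOP-1 is a retinal-binding opsin, and ORP-1 is an opsin-related protein.

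Between 17574263 and 56152963 reads were counted per library. In the *mus-52*-labelled libraries the disrupted gene still had 487 to 1344 counts, against 389 to 3246 in the wild type. In the edgeR fit described below its log2 fold change between the strains was −0.11 in low-Pi (adjusted p = 0.825). In high-Pi it was −1.02 (adjusted p = 0.0439), and the strains narrowly did not overlap. The study reports that the knockout was checked by qRT-PCR. The counts alone do not show the deletion. These libraries are therefore called by their label throughout. In both media wild-type replicate I was set apart from the others: its log2 levels correlated across genes with those of replicates II and III at r = 0.931 to 0.952, where every other pair within a group reached at least 0.988. In low-Pi its levels of *phr*, *frh* and *al-1*, described below, lay far from those of replicates II and III, as did those of *orp-1* in both media. Not every gene set replicate I apart: in high-Pi its level of *ccg-1*, given below, was close to those of replicates II and III. Whether these 2 libraries hold RNA of another strain or carry a wrong label was not tested. Wild-type means and tests over 3 replicates include them as labelled. Values without them are given below for the members and for the listed genes whose call between the strains they decide. Conidial transcripts, a check on how far the germlings had left the conidial state, differed between the strains. The summed level of 5 conidial markers (*con-6*, *con-8*, *con-10*, *eas* and *fl*) was 14.1 to 19.3 CPM (counts scaled to the library's total, on edgeR's TMM scale) in the wild type and 29.3 to 57.5 CPM in the *mus-52*-labelled libraries. All 5 markers were detected in both strains, and 1 of 5 was called up between the strains in each medium (*con-10* in low-Pi and *con-6* in high-Pi) and none down. When replicate I of both wild-type groups was left out, 2 were called up and 1, *con-8*, down in low-Pi, with 1 up and *con-8* down in high-Pi. In the fit of all libraries 5.84% of all genes tested were called up and 7.51% down in low-Pi, with 7.35% and 11.7% in high-Pi. Without the wild-type replicates I these were 12.4% and 11.3% in low-Pi, with 10.4% and 13.4% in high-Pi. The markers did not all go one way. In the fit of all libraries *con-8* was lower without a call (log2 fold changes −1.53 and −1.36), and *eas* was not called (0.52 and 0.45). The part of conidial transcripts in the strain differences was not tested. In bulk RNA a change in the share of cells of a type and a change in RNA per cell cannot be told apart.

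**Figure D1:**
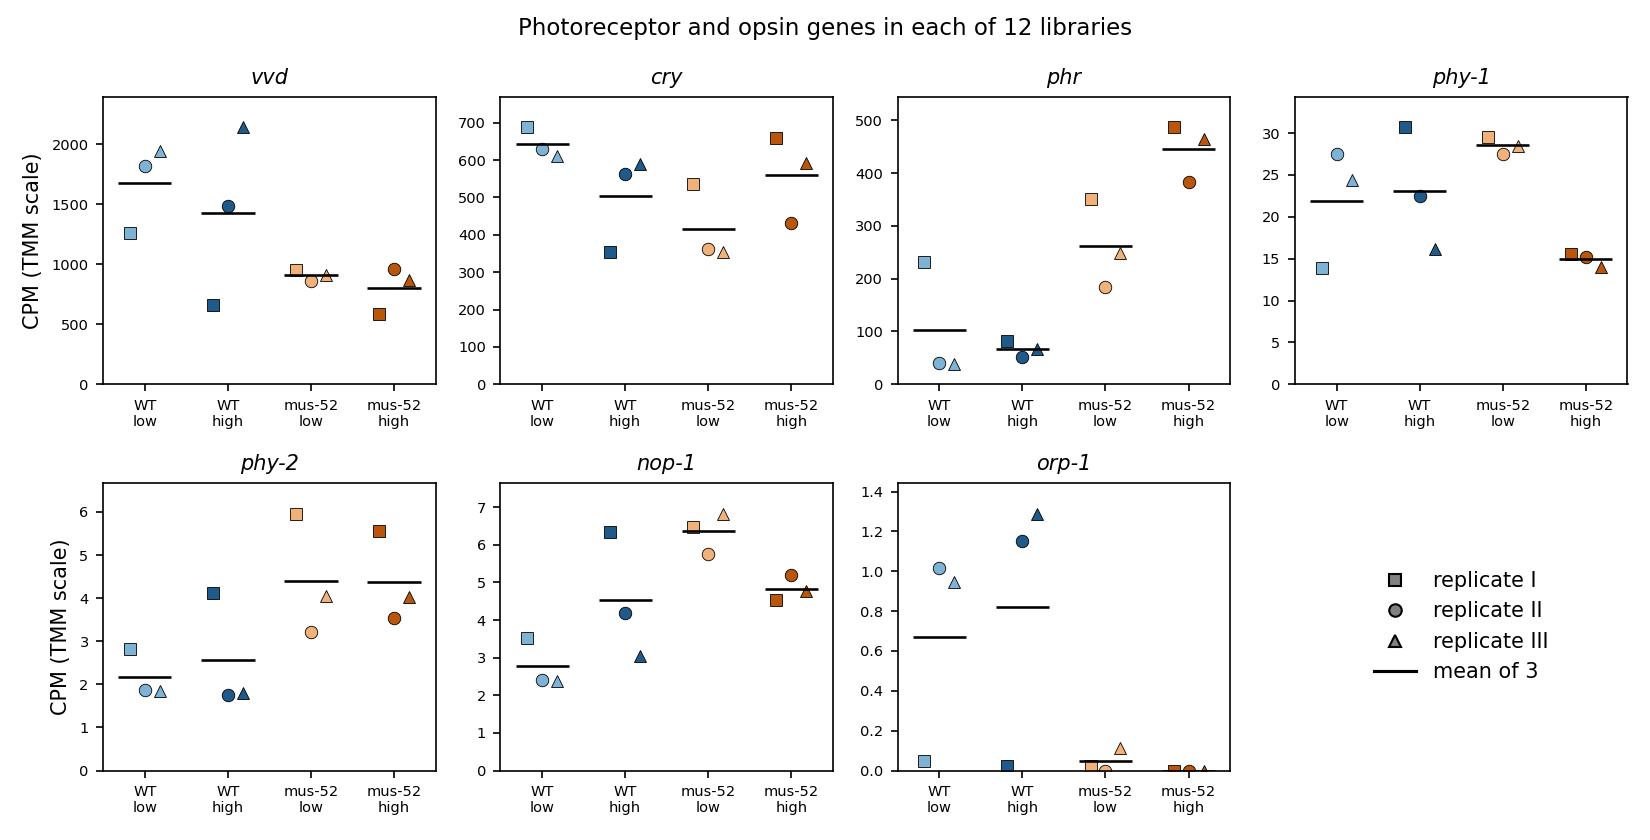
Level of each photoreceptor and opsin gene in CPM on the TMM scale (vertical axes, each with its own range starting at 0) in the 12 libraries, by strain and medium; marker shape gives the replicate and the bar the mean of 3. The *phr* level of wild-type replicate I in low-Pi (231 CPM) lay between those of the other wild-type libraries and most of the *mus-52*-labelled libraries, and *orp-1* was near 0 in replicate I of the wild type as in all *mus-52*-labelled libraries.

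The levels counted for the 7 genes spanned more than 3 orders of magnitude. The lowest was that of *orp-1*, whose low count, as described below, need not mean a scarce transcript. Per kilobase of annotated gene span, *vvd* was the most abundant member in every group. Its mean level was 510 ± 112 CPM per kb (SD, n = 3) in the wild type in low-Pi, above 97.6% of the genes tested. In that group *cry* followed at 153 ± 9.62 and *phr* at 52.3 ± 55.8 CPM per kb. Much lower levels were found for *phy-1* (3.39 ± 1.11 CPM per kb), *nop-1* (1.33 ± 0.311), *phy-2* (0.570 ± 0.145) and *orp-1* (0.221 ± 0.179). The order was the same in the wild type in high-Pi. In the wild type, libraries of neighbouring genes in this order did not overlap, except for *phy-1* and *nop-1* in high-Pi.

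The order differed in the *mus-52*-labelled libraries, where *phr* stood above *cry*. In low-Pi, *phr* reached 132 ± 42.1 and *cry* 99.3 ± 24.4 CPM per kb, and their libraries overlapped. In high-Pi, the level of *phr* (225 ± 27.3 CPM per kb) overlapped with that of *vvd* (245 ± 59.6 CPM per kb), and *cry* was at 134 ± 28.0 CPM per kb. The ratio of *phr* to *cry* within a library, both per kb, was 0.712, 0.138 and 0.133 in wild-type replicates I to III in low-Pi. It was 0.489, 0.197 and 0.237 in the wild type in high-Pi. In the *mus-52*-labelled libraries it was 1.39, 1.08 and 1.49 in low-Pi, with 1.57, 1.89 and 1.66 in high-Pi. Every *mus-52*-labelled library thus had more *phr* than *cry* per kb, and every wild-type library had less. In the *mus-52*-labelled libraries, *nop-1* and *phy-1* also had overlapping levels in high-Pi, at 2.33 ± 0.167 and 2.31 ± 0.126 CPM per kb.

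Strain comparisons asked how these transcripts differed in each medium between the libraries labelled *mus-52* and the wild type. Tests used edgeR's quasi-likelihood fit over all 12 libraries with Benjamini-Hochberg adjustment over the 7746 genes that passed the filter on low counts. All 7 members passed it, *orp-1* only through replicates II and III of the wild type. It entered the tests through the group in which it is high, so it is left out of the counts between strains and between media and described by its reads. A gene was called when its adjusted p was at most 0.05 and its log2 fold change at least 1.5 in either direction. In low-Pi none of the other 6 was called up or down by edgeR or DESeq2, where 5.84% of all genes tested were called up and 7.51% down by edgeR. At an unadjusted p under 0.05, 5 of the 6 differed in low-Pi, where 50.8% of all genes tested did. By the adjusted p alone 1 differed with edgeR, against 38.4% of all genes tested, and 5 with DESeq2, against 43.2%. In high-Pi 1 of the 6, *phr*, was called up and none down, against backgrounds of 7.35% up and 11.7% down. There 3 of the 6 had an unadjusted p under 0.05, as did 56.7% of all genes tested, and 1 passed the adjusted p, as did 48.8%. With replicate I left out of both wild-type groups, 5 of the 6 in low-Pi and 4 in high-Pi passed the adjusted p, against 72.0% and 70.7% of all genes tested. Groups did not overlap between the strains for 5 of the 6 in low-Pi and 2 in high-Pi. Over all genes tested these shares were 54.8% and 60.5%, so non-overlap was common throughout the transcriptome.

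The photolyase gene *phr* lies on chromosome I, 9639998 to 9641977 of the NC12 assembly. Its levels in the wild type were 231, 41.0 and 38.4 CPM in replicates I, II and III in low-Pi and 81.9, 52.3 and 66.1 CPM in high-Pi. The *mus-52*-labelled values were 350, 184 and 250 CPM in low-Pi and 487, 384 and 464 CPM in high-Pi. The strains did not overlap in high-Pi, while in low-Pi replicate I of the wild type lay above replicate II of the *mus-52*-labelled libraries. In high-Pi, *phr* was 6.66-fold higher in the *mus-52*-labelled libraries (log2 fold change 2.74, standard error (SE) 0.612, adjusted p = 0.00534 from edgeR). The call was kept with each of the 6 libraries left out in turn, with log2 fold changes of 2.61 to 2.91. In low-Pi the log2 fold change came to 1.34 (SE 0.583, adjusted p = 0.0870 from edgeR), which was not called. Without replicate I of the wild type in low-Pi it was 2.64 (adjusted p = 2.9e-05 from edgeR) and was called up. With replicate I left out of both wild-type groups, the values were 2.65 in low-Pi and 2.87 in high-Pi, and 12.4% and 10.4% of all genes tested were then called up.

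*cry*, on chromosome I, 7931586 to 7935778, had the smallest differences between strains among the 3 abundant members. In the wild type it was at 687, 629 and 610 CPM in low-Pi and 355, 563 and 590 CPM in high-Pi. The *mus-52*-labelled values were 535, 361 and 354 CPM in low-Pi and 658, 431 and 593 CPM in high-Pi. The strains did not overlap in low-Pi and overlapped widely in high-Pi. The log2 fold change came to −0.62 in low-Pi (SE 0.252, adjusted p = 0.0676 from edgeR) and 0.16 in high-Pi (SE 0.251, adjusted p = 0.614). Without replicate I of both wild-type groups, the low-Pi value was −0.65 (adjusted p = 0.00776) and the high-Pi value −0.078 (adjusted p = 0.729). The annotated span of *cry* overlaps that of NCU00583, which had 1 count in a single library and none in the other 11, so few reads were assigned to the overlapping gene.

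*vvd*, on chromosome VI, 2268533 to 2271812, was at 1258, 1821 and 1943 CPM in the low-Pi wild type and 665, 1489 and 2142 CPM in high-Pi. The *mus-52*-labelled libraries had 952, 857 and 914 CPM in low-Pi and 584, 958 and 871 CPM in high-Pi. In low-Pi all wild-type libraries were above all *mus-52*-labelled libraries, and in high-Pi replicate I of the wild type fell among them. Between the strains the log2 fold change came to −0.88 in low-Pi (SE 0.367, adjusted p = 0.0745 from edgeR) and −0.83 in high-Pi (SE 0.366, adjusted p = 0.0792). Neither was called. Without replicate I of both wild-type groups the values were −1.13 (adjusted p = 7.3e-05) and −1.22 (adjusted p = 3.5e-05), past the adjusted p but short of the fold required for a call. Most genes tested passed the adjusted p in that fit, so passing it was not particular to *vvd*.

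**Figure D2:**
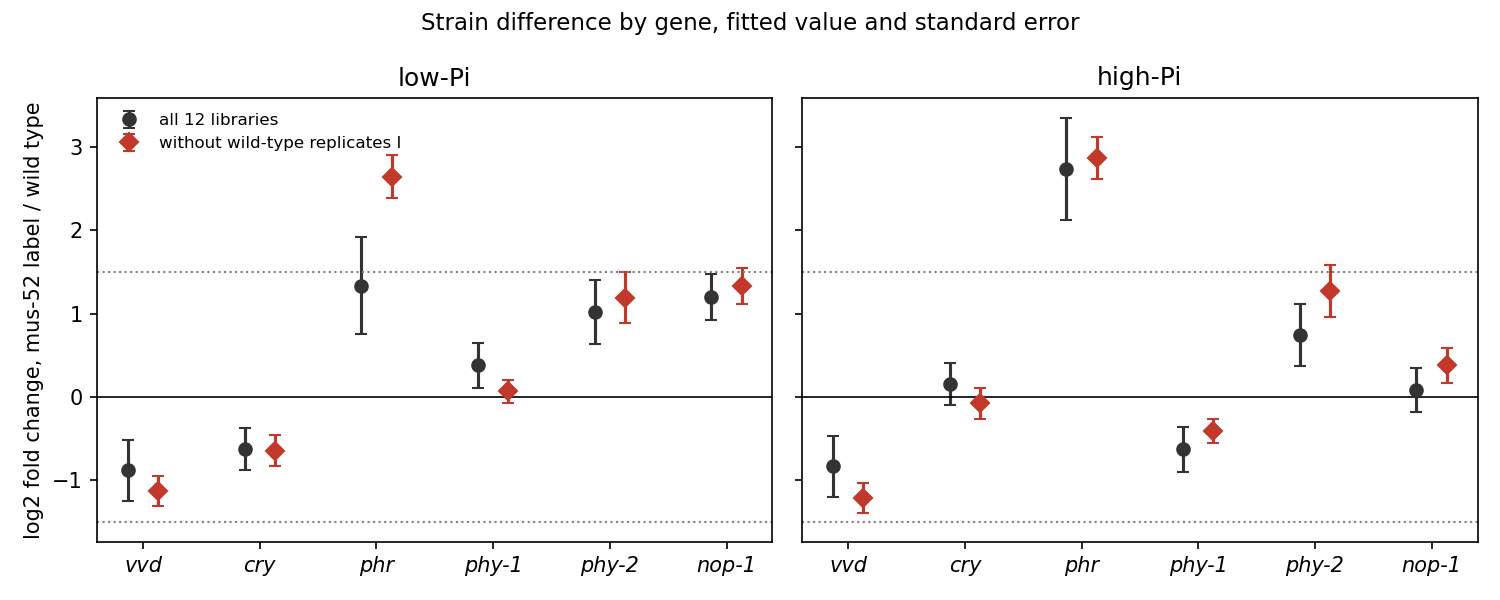
Fitted log2 fold change between the *mus-52*-labelled libraries and the wild type (vertical axis) with its standard error for 6 of the 7 genes in each medium, from all 12 libraries (circles) and without replicate I of both wild-type groups (diamonds); dotted lines mark the fold required for a call. *phr* lay above the upper line in high-Pi in both fits (2.74 and 2.87) and in low-Pi only without the wild-type replicates I (2.65 against 1.34); *orp-1* is left out because its fitted value has no lower limit where its counts are 0.

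The phytochrome genes were expressed at low levels. *phy-1*, on chromosome VI, 994869 to 1001345, was at 13.9, 27.5 and 24.4 CPM in the low-Pi wild type and 30.7, 22.5 and 16.1 CPM in high-Pi. The *mus-52*-labelled libraries were closer together, at 29.5, 27.6 and 28.5 CPM in low-Pi and 15.6, 15.2 and 14.0 CPM in high-Pi. Wild-type libraries of the 2 media covered much the same range, whereas the 2 media did not overlap in the *mus-52*-labelled libraries. Between the strains the log2 fold change came to 0.38 in low-Pi (adjusted p = 0.273 from edgeR) and −0.63 in high-Pi (adjusted p = 0.0729), and neither was called. Without replicate I of both wild-type groups these were 0.065 (adjusted p = 0.690) and −0.41 (adjusted p = 0.0178).

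*phy-2*, on chromosome VII, 3833572 to 3837393, was at 2.82, 1.87 and 1.84 CPM in the low-Pi wild type and 4.12, 1.76 and 1.81 CPM in high-Pi. It was at 5.96, 3.21 and 4.05 CPM in the *mus-52*-labelled libraries in low-Pi and 5.56, 3.53 and 4.03 CPM in high-Pi. All *mus-52*-labelled libraries were above the wild type in low-Pi, and in high-Pi replicate I of the wild type overlapped with them. The log2 fold change came to 1.02 in low-Pi (SE 0.382, adjusted p = 0.0534 from edgeR) and 0.74 in high-Pi (SE 0.373, adjusted p = 0.117). Without replicate I of both wild-type groups it was 1.19 (adjusted p = 0.00219) and 1.27 (adjusted p = 0.00148), in both cases under the fold required for a call.

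The opsin gene *nop-1*, on chromosome VII, 1316548 to 1318623, was at 3.51, 2.40 and 2.38 CPM in the low-Pi wild type and 6.34, 4.19 and 3.04 CPM in high-Pi. With the *mus-52* label it was at 6.49, 5.76 and 6.83 CPM in low-Pi and 4.53, 5.21 and 4.77 CPM in high-Pi. The strains were apart in low-Pi, and the *mus-52*-labelled libraries lay within the wild-type range in high-Pi. In low-Pi the log2 fold change came to 1.20 (SE 0.276, adjusted p = 0.00849 from edgeR), a 2.29-fold higher level. It was the only member past edgeR's adjusted p in low-Pi in the fit of all libraries, and its fold was too small for a call. In high-Pi its log2 fold change was 0.082 (SE 0.268, adjusted p = 0.812). Its log2 fold changes without replicate I of both wild-type groups were 1.33 (adjusted p = 3.9e-05 from edgeR) in low-Pi and 0.38 (adjusted p = 0.116) in high-Pi.

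*orp-1*, on chromosome II, 2598794 to 2601814, was the member nearest to the limit of detection, so its counts are given. Wild-type replicates I to III held 1, 19 and 21 reads of it in low-Pi, with 1, 19 and 25 in high-Pi. The *mus-52*-labelled libraries held 1, 0 and 2 in low-Pi and 0 in all 3 replicates in high-Pi. Replicates II and III of the wild type were thus the only libraries with more than 2 counts. The upper limit at a count of 0, set at 3 counts, was 0.0535 to 0.123 CPM in the *mus-52*-labelled libraries in high-Pi. Against the limit of the shallowest of these libraries, the mean of the wild type in high-Pi (0.822 CPM) was at least 6.68-fold higher. Wild-type replicate I in high-Pi (0.0234 CPM) was itself below that limit. In low-Pi the 41 wild-type counts against 3 gave a pooled ratio of levels of 18.3, and replicate I of the wild type overlapped with the *mus-52*-labelled libraries. The wild-type counts came almost wholly from replicates II and III, so both ratios describe these replicates rather than the wild type as a whole. *orp-1* has 2 annotated transcripts, and how reads shared between transcripts were counted is not given in the sources used here. Several transcripts are annotated for 898 genes, 27.1% of which had a total of 0, against 4.03% of the 8831 genes with a single transcript, and their median total over the 12 libraries was 34 counts against 7468. A low or 0 count of such a gene therefore does not show that its transcript was scarce or absent.

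The comparison of high-Pi with low-Pi asked whether these genes respond to the Pi supply. In the wild type none of the 6 members other than *orp-1* was called by edgeR in either direction. Of all genes tested, 0.207% were called up and 0.0129% down. DESeq2 called none, and 1 member, *nop-1*, had an unadjusted p under 0.05, as did 13.3% of all genes tested. Its log2 fold change was 0.72 (SE 0.276, adjusted p = 0.312 from edgeR), and 0.58 (adjusted p = 0.127) without replicate I of both wild-type groups. The log2 fold change of *phr* was −0.63 (SE 0.576, adjusted p = 0.691), and 0.57 without replicate I of both wild-type groups (adjusted p = 0.166). That of *phy-1* was 0.078 and turned to −0.44 (adjusted p = 0.0647) without them. The media did not overlap for 1 of the 6 members, *cry*, where 12.7% of all genes tested did not overlap.

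In the *mus-52*-labelled libraries none of these 6 members was called by edgeR or by DESeq2 for the Pi response either. By edgeR 0.0258% of all genes tested were called up and 2.58% down. At an unadjusted p under 0.05, 1 member, *phy-1*, differed, as did 16.6% of all genes tested. Its log2 fold change was −0.93 (SE 0.272, adjusted p = 0.0846 from edgeR), and −0.91 (adjusted p = 4.8e-05) when the wild-type replicates I were left out of the shared fit. All high-Pi libraries had more *phr* than all low-Pi libraries, with a log2 fold change of 0.77 (SE 0.576, adjusted p = 0.598) that became 0.79 (adjusted p = 0.0127) in the latter fit. Both stayed under the fold required for a call, and 33.2% of all genes tested passed the adjusted p in that fit. The *mus-52*-labelled libraries compared were the same in both fits. The media did not overlap for 3 of the 6 members (*phr*, *phy-1* and *nop-1*), where 46.5% of all genes tested did not overlap.

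**Figure D3:**
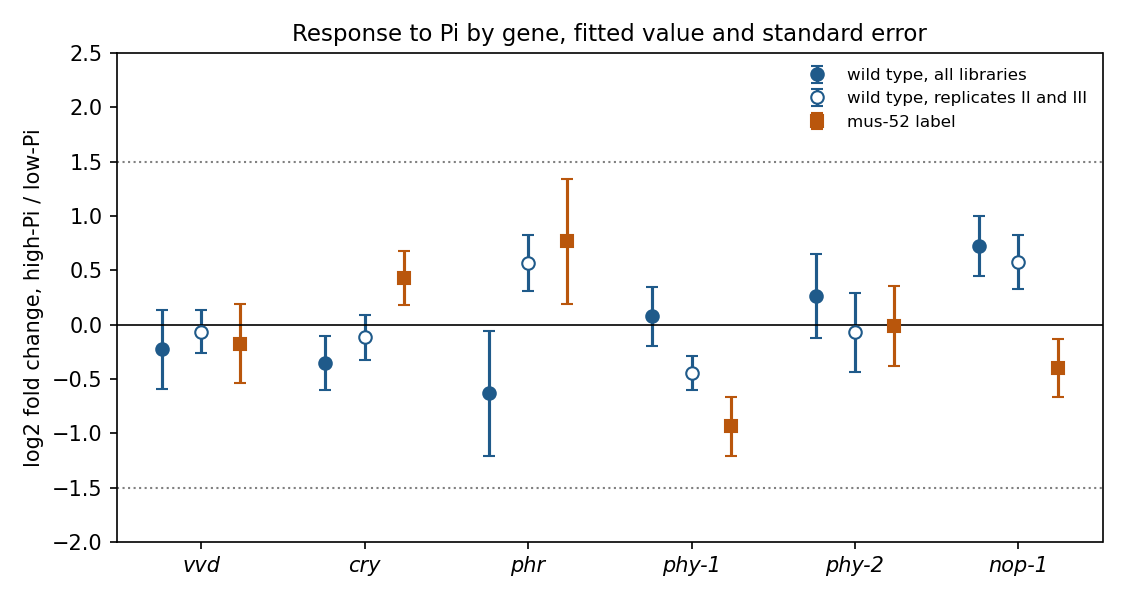
Fitted log2 fold change of high-Pi over low-Pi (vertical axis) with its standard error for 6 of the 7 genes in the wild type (filled circles), in the wild type without replicate I of both media (open circles) and in the *mus-52*-labelled libraries (squares); dotted lines mark the fold required for a call. No value lay past the lines, and the wild-type value of *phr* moved from −0.63 to 0.57 without the replicates I.

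The responses of the strains to Pi were compared by the interaction of strain and Pi. None of the 6 members other than *orp-1* was called by edgeR, against 0.142% of all genes tested called up and 4.12% called down. At an unadjusted p under 0.05, 3 of the 6 differed, as did 19.6% of all genes tested. The interaction was 0.78 on the log2 scale for *cry* (SE 0.355, adjusted p = 0.252), −1.01 for *phy-1* (SE 0.383, adjusted p = 0.167) and −1.12 for *nop-1* (SE 0.384, adjusted p = 0.128). The strain differences of *phr* in the 2 media were not shown to differ (interaction 1.40, SE 0.815, adjusted p = 0.387). With replicate I left out of both wild-type groups, the interaction of *phr* fell to 0.22 (adjusted p = 0.657), that of *phy-1* was −0.47 (adjusted p = 0.0945) and that of *cry* 0.57 (adjusted p = 0.143). In that fit *nop-1* passed the adjusted p at −0.95 (adjusted p = 0.0298), as did 25.5% of all genes tested, and was under the fold required for a call.

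The white collar complex and the clock that acts through it were covered by 6 listed genes, all tested. Leaving out *ck-1a*, described below, 1 was called up (*frh*) and 1 down (*wc-1*) in each medium. All genes tested gave 5.84% up and 7.51% down in low-Pi, with 7.35% up and 11.7% down in high-Pi. *wc-1*, the photoreceptor of the complex, was at 4.85, 8.12 and 7.15 CPM in the low-Pi wild type and 1.30, 1.08 and 1.33 CPM in the *mus-52*-labelled libraries. Between the strains its log2 fold change came to −2.43 in low-Pi (adjusted p = 0.00261 from edgeR) and −1.69 in high-Pi (adjusted p = 0.00732), and the strains did not overlap in either medium. *wc-2* was higher by the adjusted p alone in both media (log2 fold changes 0.72 and 0.58). *frh*, which encodes the RNA helicase that binds the clock protein FRQ, was at 119, 21.4 and 23.7 CPM in the wild type in low-Pi, with replicate I far above the others as for *phr*, and at 188, 185 and 172 CPM in the *mus-52*-labelled libraries. Its log2 fold change was 1.73 in low-Pi and 2.79 in high-Pi, and 2.94 in both without replicate I of both wild-type groups. *frq*, the central clock gene, was higher by the adjusted p alone in high-Pi (0.96). *ck-1a*, the kinase that phosphorylates FRQ, had only 2 to 27 counts per library. It passed the filter on low counts only through the wild type, where it is high, so its down calls are not counted. *wc-1*, *frq* and *ck-1a* have more than 1 annotated transcript, so the doubt raised for *orp-1* on such genes applies to their levels too. With *ck-1a* left out, the median log2 fold change of the list was that of *frq* in low-Pi (0.53) and of *wc-2* in high-Pi (0.58). Over all genes tested it was 0.071 in low-Pi and −0.017 in high-Pi.

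Of 13 further genes that are known to be induced by light through the complex, 12 were tested, and *sub-1*, which has more than 1 annotated transcript, had no counts in any library. In low-Pi 1 was called up (*con-10*, a gene of conidiation). In high-Pi 3 were called up: *al-1* (phytoene desaturase of carotenoid synthesis), *al-3* (geranylgeranyl diphosphate synthase, which feeds carotenoid synthesis) and *con-6*. *ccg-1*, a clock-controlled gene, was called down in high-Pi. Over all genes tested edgeR called 5.84% up and 7.51% down in low-Pi, with 7.35% and 11.7% in high-Pi. DESeq2 called 2 genes of the list up and 1 down in low-Pi, where 5.44% and 8.5% of all genes were. In high-Pi it called 3 up and 1 down, where 5.3% and 12% were. *al-1* was at 815, 120 and 119 CPM in the wild type in low-Pi, again with replicate I far above the others, and at 380, 157 and 239 CPM in the *mus-52*-labelled libraries. Its log2 fold change in low-Pi turned from −0.44 (adjusted p = 0.603 from edgeR) to 1.04 (adjusted p = 0.0407) without replicate I of both wild-type groups. In high-Pi it was at 200, 95 and 153 CPM in the wild type and 997, 721 and 963 CPM in the *mus-52*-labelled libraries, a log2 fold change of 2.58 (adjusted p = 0.0113 from edgeR). *csp-1*, a transcription factor gene of conidial separation, was lower by the adjusted p alone in both media (−1.43 and −1.13), and was called down in both without replicate I of both wild-type groups (−1.62 and −1.56). In that fit 2 genes of the list (*con-6* and *con-10*) were called up and 1 down in low-Pi, and 3 up and 2 down in high-Pi. Over all genes tested that fit called 12.4% up and 11.3% down for low-Pi, with 10.4% up and 13.4% down for high-Pi. The median log2 fold change of the list was 0.27 in low-Pi and 0.85 in high-Pi. *con-6*, *con-10* and *fl* of this list are also among the 5 conidial markers, whose summed level was higher in every *mus-52*-labelled library than in any wild-type library. *al-3*, *bli-3*, *con-6*, *fwd-1* and *hpt-1*, listed below, overlap other genes, and whether strand was used in counting is not given in the sources used here.

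**Figure D4:**
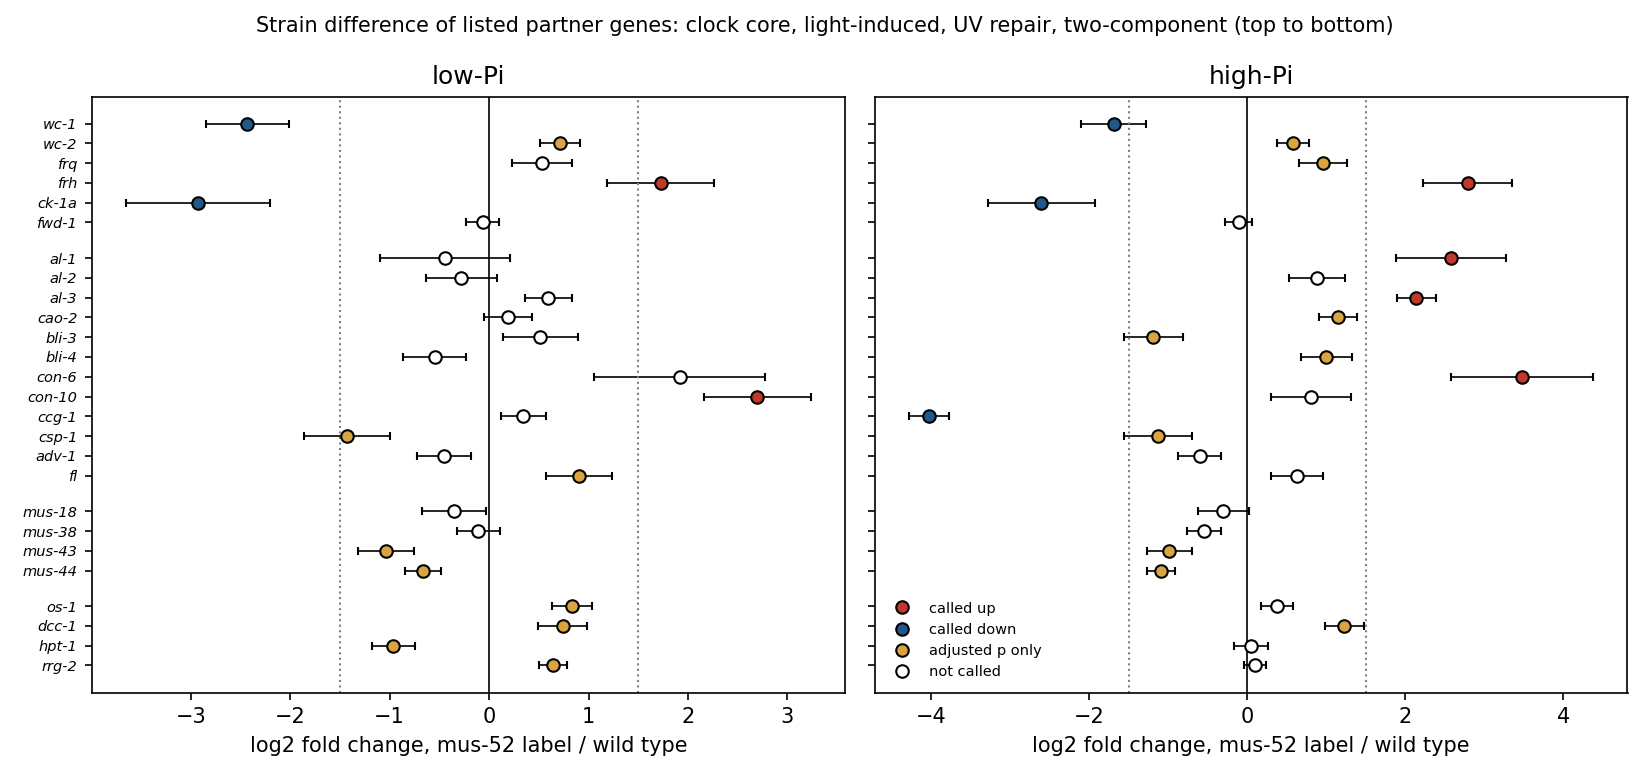
Fitted log2 fold change between the *mus-52*-labelled libraries and the wild type (horizontal axis) with its standard error for the tested genes of 4 lists, from top to bottom the clock core, light-induced genes, UV repair and two-component signalling, in low-Pi and high-Pi; colours give the call. *wc-1* and *ck-1a* lay below −1.5 and *frh* above 1.5 in both media, and among the light-induced genes 1 was called in low-Pi and 4 in high-Pi. *ck-1a* passed the filter on low counts only through the wild type, where it is high.

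PHR repairs UV lesions with light, and 4 listed genes belong to the light-independent repair of such lesions. None was called by edgeR or DESeq2 in any comparison. At an unadjusted p under 0.05, 2 of the 4 differed between the strains in low-Pi and 3 in high-Pi, where 50.8% and 56.7% of all genes tested did. *mus-43* and *mus-44*, genes of nucleotide excision repair, were lower by the adjusted p alone in both media. Of all genes tested, 38.4% passed the adjusted p in low-Pi and 48.8% in high-Pi. *mus-43* had log2 fold changes of −1.04 in low-Pi and −0.98 in high-Pi, and *mus-44* of −0.66 and −1.09. The medians of the list were −0.51 in low-Pi and −0.76 in high-Pi, below 0 where *phr* was above 0.

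Phytochromes pass signals through histidine kinase cascades, and of 6 listed genes of two-component signalling 4 were tested. *nik-2* and *rrg-1* had no counts in any library, and both have more than 1 annotated transcript, as does *hpt-1*. None was called in any comparison by edgeR or DESeq2, and 4 in low-Pi and 1 in high-Pi differed between the strains at an unadjusted p under 0.05, as did 2 for the Pi response of the *mus-52*-labelled libraries and 2 for the interaction. The shares over all genes tested were 50.8%, 56.7%, 16.6% and 19.6%. In low-Pi all 4 passed the adjusted p: the histidine kinase genes *os-1* (0.83) and *dcc-1* (0.74) and the response regulator gene *rrg-2* (0.64) were higher in the *mus-52*-labelled libraries, and the phosphotransfer gene *hpt-1* was lower (−0.97). In high-Pi only *dcc-1* passed it (1.23). Over all genes tested 38.4% passed it in low-Pi and 48.8% in high-Pi. By edgeR, Pi moved a single gene of these 4 lists past the threshold, *ccg-1*, which was called up in the wild type (2.31, adjusted p = 0.00233 from edgeR) and down in the *mus-52*-labelled libraries (−2.06, adjusted p = 0.00131). DESeq2 also called *al-1* up for Pi in the *mus-52*-labelled libraries (1.84, adjusted p = 0.0393), as did edgeR without replicate I of both wild-type groups (1.81, adjusted p = 0.00567).

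Profiles across the 12 libraries were compared by Pearson's r of log2 CPM, as a description over points that share strain, medium and depth. Among the 21 pairs of members the most alike were *vvd* and *orp-1* (r = 0.891, n = 12) and *phr* and *phy-2* (r = 0.841), and the most opposed were *vvd* and *phy-2* (r = −0.891). Over all genes tested, the profile nearest to *vvd* was that of *csp-1* (r = 0.963), followed by NCU17074 (0.954) and NCU06167 (0.944). The nearest to *phr* were *hpo* (0.987), NCU04288 (0.982) and NCU06553 (0.980). The nearest to *cry* were *inl* (0.933), *tca-6* (0.906) and NCU06751 (0.869), the lowest set of values among the members. *phy-1* was most like NCU09241 (0.939), *phy-2* most like NCU08618 (0.950), *nop-1* most like *kin-3* (0.959) and *orp-1* most like NCU08448 (0.989). Only wild-type replicates II and III held more than 2 counts of *orp-1*. Its r values therefore mainly set these libraries against libraries near its limit of detection.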

How the data were processed

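Reads were trimmed, mapped with Bowtie2 (2.1.0) to the NC12 genome and counted by gene, and the authors deposited raw counts with 1 column per library. How reads were counted, with or without strand and with what rule for multi-mapped reads, is not given in the sources used here. Deposited columns of the authors' own DESeq comparisons (means, fold changes and p-values) were not used, and 0 columns were left without a sample. Counts were normalized with TMM in edgeR 4.0.16 (limma 3.58.1, R 4.3.3), filtered with filterByExpr and fitted with 4 group means and robust quasi-likelihood estimation, which left 8 residual degrees of freedom. Standard errors are the log2 fold change divided by the square root of F. log2 CPM had a prior count of 2. Scripts were tested on simulated data. The limit that a count of 0 allows was 3 counts, or 0.0535 to 0.182 CPM per library.

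The members are picked by gene identity, with no measured value in the rule, but they and the gene lists were chosen with earlier results of these data known. Named were the 7 members, every listed gene, *mus-52*, and the 3 genes most like each member by r. The *con-6*, *con-8*, *con-10*, *eas* and *fl* markers were read as a cell-state check. Symbols and positions came from a RefSeq table of NC12, which matched 9729 gene IDs. No sequence is shown. Levels per kb used the annotated gene span, introns included. Alternatives were DESeq2 1.42.0, RLE factors, other filters, fewer libraries, replicate blocks and each library left out, and 3 were added after seeing the data: the list counts without replicate I of both wild-type groups, the list counts with DESeq2, and the member counts without *orp-1*. Same-numbered wild-type libraries deviated together between the media (r = 0.357, 0.210 and 0.337 for I, II and III). Those labelled *mus-52* did not in every pair (0.290, 0.0945 and 0.133), and between strains r was below 0. The 3 values of a comparison are not independent, as each deviation is from a mean of 3 libraries. Differently numbered libraries were not compared, so a pairing, which is stated nowhere else, is not shown.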

Additional observations from a re-analysis of the deposited data

Results flagged for a closer look

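The response to Pi was compared between the strains by the interaction of strain and Pi, in the fit of all libraries. It differed for 2 of the 12 listed light-induced genes tested and for none of the 6 members other than *orp-1*. Both light-induced genes were also called, *al-3* up and *ccg-1* down, where 0.142% of all genes tested were called up and 4.12% down. By the adjusted p, DESeq2 gave 5 and 0, where 10.3% of all genes tested passed. Without replicate I of both wild-type groups, edgeR gave 3 and 1 (*nop-1*), where 25.5% of all genes tested passed. For *ccg-1* the interaction was −4.37 on the log2 scale (adjusted p = 6.951e-05 from edgeR), and −4.04 without replicate I of both wild-type groups. Wild-type libraries had 106, 164 and 204 CPM in low-Pi against 855, 708 and 779 CPM in high-Pi, and *mus-52*-labelled libraries had 203, 176 and 221 CPM against 49.7, 53.0 and 41.3 CPM. For *al-3* the interaction was 1.54 (adjusted p = 0.0220 from edgeR), and the adjusted p was 0.0114 without them. Its mean fell from 126 ± 18.6 to 75.6 ± 13.4 CPM (SD, n = 3) from low-Pi to high-Pi in the wild type and went from 190 ± 44.9 to 333 ± 79.7 CPM in the *mus-52*-labelled libraries. Neither response of *al-3* passed the test on its own (adjusted p = 0.233 and 0.0863).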

How the results depend on the processing

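Each library left out in turn gave 0 to 1 members called up and 0 to 1 called down in low-Pi, and 0 to 1 called down in high-Pi between the strains. Down calls were all of *orp-1*, which passed the filter only where it is high. In low-Pi, 1 member was called down (*orp-1*) by DESeq2, with the replicate block shared by the strains, and without replicate I of both wild-type groups or of all 4 groups. In low-Pi 1 was called up (*phr*) with the shared replicate block (log2 fold change 1.64, adjusted p = 0.0214 from edgeR) and without replicate I of both wild-type groups or of all 4 groups. In the fit of all libraries 1 (*nop-1*) passed once the fold was no longer required. In high-Pi 0 were called down with at least 10 counts required in every library and in a fit of the 6 libraries compared, since *orp-1* failed both filters and gave no value there. Whether the numbers pair the wild-type libraries of the 2 media is not known, and no block changed a call for the response to Pi. Between the strains the numbers are shared only by name.

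Some small differences changed sign, and none of these was called; apart from the left-out libraries the cause was not tested. The response of *phy-2* to Pi in the *mus-52*-labelled libraries was 0.034 with DESeq2, 0.032 with RLE factors, 0.010 with the shared replicate block, 0.0050 with the replicate block within strain and 0.072 without replicate I of all groups, where *vvd* was at 0.047. Without replicate I of both wild-type groups, and of all 4 groups, the wild-type response was 0.57 and 0.58 for *phr*, −0.44 and −0.43 for *phy-1*, and −0.070 and −0.057 for *phy-2*. The strain difference of *cry* in high-Pi was −0.078 and −0.17, and the interaction of *phy-2* was 0.080 and 0.13. That of *vvd* was −0.090 without those of the wild type. With each library left out in turn, the wild-type response ranged from −0.63 to 0.11 for *vvd*, −1.02 to 0.74 for *phr*, −0.18 to 0.28 for *phy-1*, −0.29 to 0.49 for *phy-2* and −0.45 to 0.88 for *orp-1*. In the *mus-52*-labelled libraries it ranged from −0.24 to 0.084 for *vvd* and −0.15 to 0.28 for *phy-2*. In high-Pi the strain difference ranged from −0.035 to 0.32 for *cry* and −0.11 to 0.43 for *nop-1*. The interaction ranged from −0.28 to 0.54 for *vvd* and −0.42 to 0.28 for *phy-2*. Among the members only *orp-1* had counts of 0, and the part of depth in its low counts was not tested.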
